A study of Homo sapiens with 48 samples.

Results

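TXNIP and 4 genes named for an arrestin domain, ARRDC1, ARRDC2, ARRDC3 and ARRDC4, were followed across every group of a UPF1 knockdown experiment in human Flp-In 293 T-REx cells. The 5 genes were taken by their symbols from a table of 58870 genes. They were chosen by symbol around ARRDC4, which was known from earlier results of these data to be among the largest rises, with a wide spread between replicates. The rule named no line for that rise. In the earlier results it stood in the knockdown in cells with only the CLIP tag, so that comparison and the spread are given here as descriptions with no test. The tests of ARRDC4 in the other lines are given as measured and are not independent evidence of its rise. The rule set no threshold.

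All groups were of this embryonic kidney line, built to take a transgene at 1 recombination site. A stable line carried the CLIP tag alone (called CLIP below), another carried CLIP-tagged wild-type UPF1 (WT), and 6 carried CLIP-tagged UPF1 mutants named E797R, F192E, FE-ER, I757R, IR-ER and LECY. The names FE-ER, IR-ER and LECY are used as labels only. Each line received a non-targeting control siRNA, siNT, or siUPF1, which the design text says was aimed at endogenous UPF1, both at 40 nM. Transfection was done at seeding of 300000 cells, and RNA was taken after 72 h. With 3 replicates for each of the 16 groups of line and siRNA there were 48 libraries, and the design text calls the replicates biological. Whether a line was a clone or a pool, and whether the transgenes were induced with doxycycline, was not given in the sources used here.

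UPF1 is an RNA helicase that hydrolyses ATP and is required for nonsense-mediated mRNA decay (NMD), which removes mRNAs whose stop codon lies upstream of an exon junction and also a range of intact mRNAs. TXNIP and the ARRDC proteins are alpha-arrestins, membrane-associated adaptors that bring NEDD4-family ubiquitin ligases to cargo proteins through short proline-rich motifs. TXNIP also binds thioredoxin and restrains glucose uptake. TXNIP and ARRDC4 are classic targets of MondoA (gene MLXIP) and its partner Mlx, transcription factors that respond to glucose 6-phosphate.

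The 48 libraries held 6016999 to 14551820 expected counts (median 8670883), and 16697 genes passed the filter on low counts, all 5 genes among them. Levels are CPM, a library's counts scaled to a common depth, adjusted by TMM factors of 0.951 to 1.03. All 10 markers chosen for this cell line were detected in all 48 libraries, with a summed level of 1299 to 1482 CPM per group. VIM (496 to 632 CPM) and NEFL (204 to 368 CPM) had the highest levels. NEFM (0.598 to 2.07 CPM), NES (0.516 to 6.15 CPM) and PAX2 (2.50 to 7.70 CPM) were low. Among markers of other cell types, PTPRC, PECAM1, ALB, CD3E, HBB and MYH7 stayed at or under 0.154 CPM in each group, CD3E had no count in any library, COL1A1 and COL3A1 ranged from 0.856 to 5.62 CPM, and the epithelial marker EPCAM had 69.4 to 80.8 CPM. COL1A1, COL3A1 and EPCAM also had counts in all 48 libraries, so detection alone did not separate the lists. With siUPF1 2 to 5 of the 10 markers of the cell line fell in each line and 0 rose. NES and INA fell in 8 of 8 lines. Over all genes 6.98% to 15.6% were called lower and 8.13% to 18.1% higher in these knockdowns. With replicate number as a block in the fit, 5 or 6 of the 10 fell and 1 or 2 rose per line. The part of these changes in the results was not tested. UPF1 in the 3 CLIP replicates was 111, 97.2 and 109 CPM with siNT and 20.4, 21.3 and 19.5 CPM with siUPF1. In the other 7 lines UPF1 stood at 3050 to 5116 CPM. Counts there summed the transgene and the endogenous gene and differed by −0.15 to 0.15 on the log2 scale between the siRNAs, so they could not show how far endogenous UPF1 fell.

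The 5 genes lie on 5 chromosomes (hg38, GENCODE 29). TXNIP spans chromosome 1, 145992435 to 145996600 on the minus strand. ARRDC4 spans chromosome 15, 97960698 to 97973838 on the plus strand. ARRDC1 lies on chromosome 9 (137605654 to 137615360, plus), ARRDC2 on chromosome 19 (18001132 to 18014102, plus) and ARRDC3 on chromosome 5 (91368724 to 91383359, minus). Exons of ARRDC1 share 183 bases with AL590627.2 and 29 bases with the antisense gene ARRDC1-AS1, and exons of ARRDC3 share 145 bases with ARRDC3-AS1. These are 4.79%, 0.759% and 2.94% of the exonic bases of ARRDC1, ARRDC1 and ARRDC3. The strand setting of the counting was not given in the sources used here, so reads in the shared bases cannot be assigned.

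The stretches of DNA just upstream of TXNIP and ARRDC4 are shown because these 2 genes moved together in the libraries, as described further on. They are from RefSeq (GRCh38.p14), written 5′ to 3′ on the strand of the gene, and cover chr1:145996601-145996829 on the minus strand for TXNIP and chr15:97960453-97960697 on the plus strand for ARRDC4. Capitals mark matches to the motifs searched on both strands, namely the E-box CACGTG, a paired E-box (CACGNG repeated after 5 bases), the CCAAT box (read ATTGG on the other strand), the FOXO-type motif GTAAACA and the TATA motif TATAAA.
TXNIP: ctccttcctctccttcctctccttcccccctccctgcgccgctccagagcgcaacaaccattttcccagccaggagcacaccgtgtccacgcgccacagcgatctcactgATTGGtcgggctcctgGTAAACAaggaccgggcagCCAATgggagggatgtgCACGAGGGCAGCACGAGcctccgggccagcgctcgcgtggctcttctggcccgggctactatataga
ARRDC4: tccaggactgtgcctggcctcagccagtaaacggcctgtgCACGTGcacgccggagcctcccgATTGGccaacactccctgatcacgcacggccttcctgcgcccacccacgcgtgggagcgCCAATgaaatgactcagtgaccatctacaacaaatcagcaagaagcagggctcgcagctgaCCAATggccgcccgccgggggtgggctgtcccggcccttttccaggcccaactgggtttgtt
TXNIP held 1 match to the paired E-box, written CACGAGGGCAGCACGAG, whose last base is 72 bases before the RefSeq start site. Of 35116 RefSeq windows of 250 bases before a start site, 16 held a match to that motif, or 0.0456%. The motifs were picked with the genes already named, so this share does not measure how unexpected the match in TXNIP was. TXNIP also held 2 CCAAT boxes and 1 GTAAACA, a motif present in 2.98% of windows. ARRDC4 had no match to the paired E-box but 1 to CACGTG, which 6.34% of windows held, and 3 CCAAT boxes, a number that 2.93% of windows reached. ARRDC1 and ARRDC3 had 1 CCAAT box each in their windows, and ARRDC2 had a match to none of the 5 motifs. These matches describe letters in a window and are not evidence of binding.

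The main transcripts of the 5 genes were alike in outline. Each had 8 exons and a coding sequence of 1176 to 1302 nt, and in none did an exon junction lie more than 50 nt after the stop codon, the arrangement that NMD recognises best. Such a junction was present in the main transcript of 43 of 13193 coding genes tested. Main transcripts were taken only from those annotated as protein coding, which leaves out transcripts annotated as NMD substrates. The low share and the absence in the 5 genes therefore follow at least in part from that choice. ARRDC3 had 2 ATG triplets in its 5′ UTR and the other 4 genes had 0, while 50.7% of coding genes had at least 1. The 3′ UTRs were 2676 nt in ARRDC3, 2651 nt in ARRDC4, 1416 nt in TXNIP, 1136 nt in ARRDC2 and 220 nt in ARRDC1, against a median of 1026 nt over the coding genes. The annotation lists 1 transcript of ARRDC1 as an NMD substrate and none of the other 4 genes.

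Levels were compared between genes per kilobase of exon. With siNT the median over 24 libraries was 7.83 CPM per kb for ARRDC4, 5.09 for ARRDC1, 3.72 for ARRDC3, 2.37 for ARRDC2 and 1.56 for TXNIP, all in CPM per kb. With siUPF1 the medians were 22.7 for ARRDC4, 6.40 for ARRDC1, 4.70 for TXNIP, 4.56 for ARRDC3 and 2.56 for ARRDC2, again in CPM per kb. ARRDC4 was thus the most abundant and TXNIP moved from the lowest place to near ARRDC3. Of the remaining arrestin-fold genes, ARRDC5 had a count in 2 libraries, and the visual arrestins SAG and ARR3 reached at most 2 counts in a library, so these 3 were not tested.

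In CLIP cells, where siUPF1 lowered UPF1 RNA, TXNIP was 4.20-fold and ARRDC4 4.77-fold higher with siUPF1. In bulk RNA a change in the share of cells expressing a gene and a change in its RNA per cell cannot be told apart. TXNIP was at 8.88, 4.61 and 5.33 CPM in the 3 siNT libraries and at 30.1, 25.4 and 21.9 CPM in the siUPF1 libraries (replicates 1, 2 and 3 in this order here and below). ARRDC4 was at 30.6, 20.5 and 35.9 CPM with siNT and at 150, 124 and 141 CPM with siUPF1. For both genes every siUPF1 library lay above every siNT library, which was true of 23.3% of all genes tested in this line. The log2 differences were 2.07 (SE 0.34) for TXNIP and 2.25 (SE 0.59) for ARRDC4.

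ARRDC2, ARRDC3 and ARRDC1 differed less in CLIP cells. ARRDC2 was at 10.9, 7.17 and 9.69 CPM with siNT and at 17.9, 17.1 and 15.7 CPM with siUPF1, a log2 difference of 0.88 (SE 0.16). ARRDC3, an adaptor known for the trafficking of beta-adrenergic receptors, was at 21.5, 22.7 and 18.0 CPM with siNT and at 30.2, 32.9 and 30.0 CPM with siUPF1 (log2 difference 0.58, SE 0.13). Neither gene's groups overlapped, and siUPF1 lay wholly above siNT for 23.3% of genes in this line. ARRDC1, which drives budding of vesicles from the plasma membrane, was at 18.0, 15.3 and 19.8 CPM against 22.5, 18.7 and 20.4 CPM, with overlapping groups (log2 difference 0.21, SE 0.16).

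**Figure D1:**
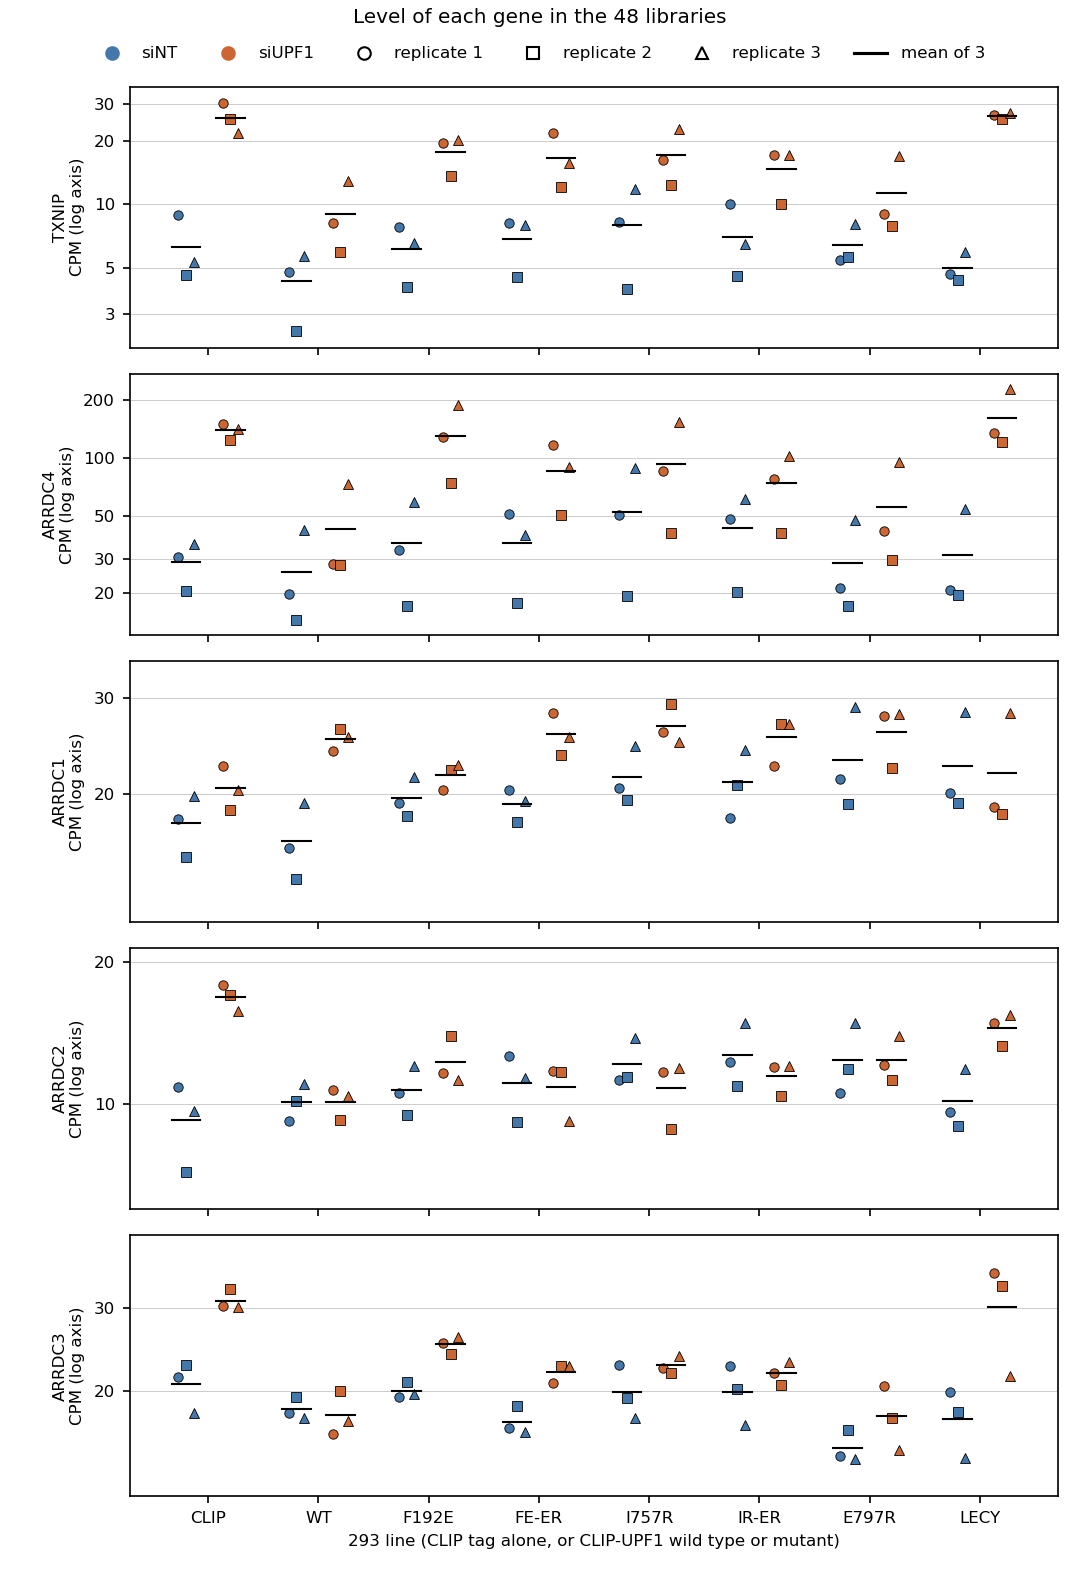
Level of the 5 genes in each of the 48 libraries, in CPM on a log axis, by line (horizontal axis), siRNA (colour) and replicate number (symbol), with the mean of 3 as a bar. TXNIP and ARRDC4 were higher with siUPF1 in all 8 lines when libraries of 1 replicate number were compared, and ARRDC4 was lowest in replicate 2 (squares) in all 16 groups. The shares of all genes with these patterns were not computed.

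In the other 7 lines TXNIP and ARRDC4 also stood at higher levels with siUPF1. In WT cells TXNIP was at 4.76, 2.50 and 5.69 CPM with siNT and at 8.13, 5.95 and 12.8 CPM with siUPF1. These groups did not overlap, as was the case with siUPF1 above siNT for 13.2% of genes, but the gap between them was narrow. The log2 difference of 1.09 (SE 0.40, 95% interval 0.28 to 1.90) did not pass the test (edgeR adjusted p = 0.0551), and it passed once replicate number was a block in the fit (edgeR adjusted p = 0.00592). ARRDC4 in WT cells was at 19.7, 14.6 and 42.3 CPM with siNT and at 28.0, 27.7 and 72.8 CPM with siUPF1. Its groups overlapped because replicate 3 was high with both siRNAs, and its log2 difference of 0.76 (SE 0.63) passed neither fit (edgeR adjusted p = 0.483, with the block 0.101). Leaving out 1 library left the replicate numbers unbalanced, and gave 1.36 without siNT replicate 3 and 0.13 without siUPF1 replicate 3. Without all libraries of 1 replicate number it was 0.69 to 0.84. Within replicate numbers 1, 2 and 3 the ratios of siUPF1 to siNT were 1.42, 1.90 and 1.72.

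In F192E cells both genes rose. TXNIP was at 7.83, 4.04 and 6.52 CPM with siNT and at 19.5, 13.6 and 20.1 CPM with siUPF1, a log2 difference of 1.51 (SE 0.34, edgeR adjusted p = 0.00112). ARRDC4 was at 33.2, 17.2 and 58.7 CPM with siNT and at 128, 73.9 and 188 CPM with siUPF1, a log2 difference of 1.82 (SE 0.59, edgeR adjusted p = 0.0257). Groups of neither gene overlapped, against 18.8% of all genes with siUPF1 wholly above siNT in this line. The ARRDC4 call, made without a block, depended on single libraries: without siNT replicate 1 or 2, or siUPF1 replicate 1 or 3, the adjusted p was 0.0808, 0.127, 0.0520 or 0.116 (edgeR). The difference itself was 1.76 to 1.97 without all libraries of 1 replicate number.

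LECY cells gave the largest differences of the 7 lines for both genes. TXNIP was at 4.67, 4.38 and 5.92 CPM with siNT and at 26.4, 25.3 and 27.0 CPM with siUPF1, 5.23-fold higher (log2 difference 2.39, SE 0.36, edgeR adjusted p = 2.04e-06). ARRDC4 was at 20.7, 19.6 and 54.1 CPM with siNT and at 134, 121 and 227 CPM with siUPF1, 5.09-fold higher (log2 difference 2.35, SE 0.60, edgeR adjusted p = 0.00351). Without siNT replicate 3 the ARRDC4 difference was 3.0, and without all libraries of 1 replicate number it was 2.24 to 2.66. Both siUPF1 groups lay wholly above their siNT groups, as did 20.1% of genes in this line. These levels with siUPF1 were close to those of CLIP cells, 26.2 against 25.8 CPM for TXNIP and 161 against 138 CPM for ARRDC4 as means of 3, and were not tested against them.

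In FE-ER, I757R and IR-ER cells TXNIP rose while ARRDC4 was higher with siUPF1 in each replicate number without passing the test. TXNIP in FE-ER cells was at 8.11, 4.52 and 7.98 CPM with siNT and at 21.8, 12.1 and 15.6 CPM with siUPF1 (log2 difference 1.24, SE 0.35, edgeR adjusted p = 0.00866). I757R cells had 8.23, 3.97 and 11.8 CPM against 16.3, 12.3 and 22.6 CPM of TXNIP (1.09, SE 0.34, edgeR adjusted p = 0.0219). IR-ER cells had 10.0, 4.55 and 6.48 CPM against 17.1, 10.1 and 17.1 CPM of TXNIP (1.06, SE 0.35, edgeR adjusted p = 0.0306). No group of siUPF1 overlapped its siNT group for TXNIP, although in I757R and IR-ER cells the gap was under 1 CPM, and siUPF1 lay wholly above siNT for 17.6%, 14.7% and 17.1% of genes in these lines. Leaving out 1 library ended the TXNIP call in 2 of 6 fits for FE-ER (siUPF1 replicate 1, siNT replicate 2), 3 of 6 for I757R (siNT replicates 1 and 2, siUPF1 replicate 3) and 4 of 6 for IR-ER (siUPF1 replicates 1 and 3, siNT replicates 2 and 3), with adjusted p up to 0.0791, 0.149 and 0.182 (edgeR).

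ARRDC4 overlapped between the siRNAs in these 3 lines. FE-ER cells had 51.0, 17.6 and 39.9 CPM with siNT and 116, 50.7 and 90.1 CPM with siUPF1 (log2 difference 1.22, SE 0.59). I757R cells had 50.3, 19.3 and 88.3 CPM against 85.2, 41.0 and 153 CPM of ARRDC4 (0.83, SE 0.58). In IR-ER cells ARRDC4 was at 48.5, 20.3 and 61.4 CPM against 77.7, 40.6 and 102 CPM (0.76, SE 0.59). With 1 library left out these differences ran from 0.91 to 1.53 in FE-ER, 0.29 to 1.40 in I757R and 0.40 to 1.07 in IR-ER. Without all libraries of 1 replicate number they ran from 1.17 to 1.27, 0.78 to 0.85 and 0.70 to 0.80. Replicate 2 with siUPF1 was below replicate 1 with siNT in all 3 lines, yet above replicate 2 with siNT. Adjusted p for ARRDC4 was 0.162, 0.387 and 0.439 without a block and 0.00140, 0.0263 and 0.0461 with replicate number as a block (edgeR).

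E797R cells had the smallest TXNIP difference. TXNIP was at 5.42, 5.61 and 8.09 CPM with siNT and at 9.01, 7.88 and 17.0 CPM with siUPF1, and this was the only one of the 7 lines in which its groups overlapped (siUPF1 lay wholly above siNT for 15% of genes there). The log2 difference was 0.86 (SE 0.36, edgeR adjusted p = 0.104, with the block 0.0143). ARRDC4 was at 21.2, 17.1 and 47.7 CPM with siNT and at 41.8, 29.5 and 94.9 CPM with siUPF1 (log2 difference 0.98, SE 0.61, edgeR adjusted p = 0.318, with the block 0.0243). With 1 library left out the ARRDC4 difference ran from 0.35 (without siUPF1 replicate 3) to 1.54. Without all libraries of 1 replicate number it was 0.89 to 1.01.

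**Figure D2:**
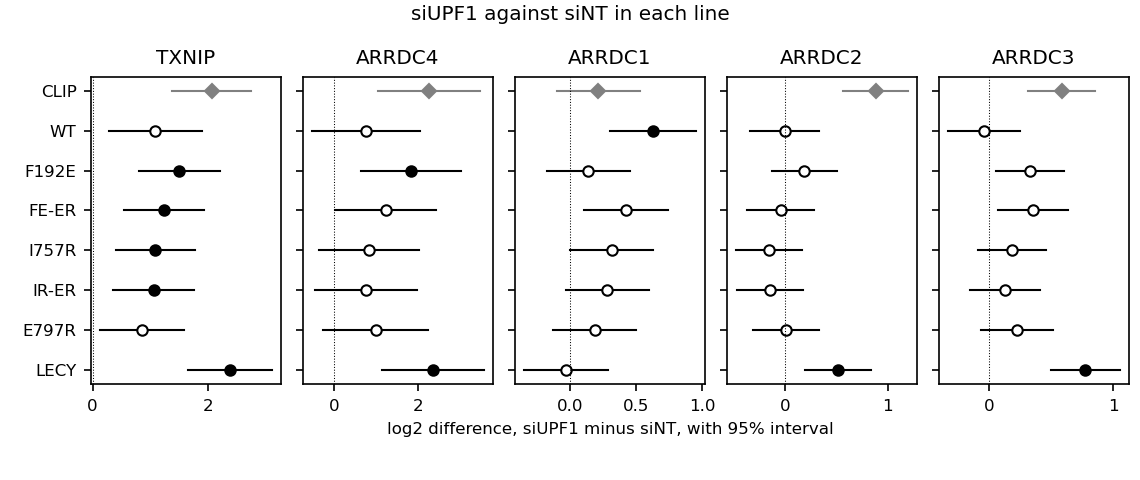
Log2 difference of siUPF1 minus siNT with its 95% interval (horizontal axis) for each gene (panel) and line (vertical axis). Filled circles passed the test and open circles did not, and grey diamonds mark CLIP, where no test was made. Each panel has its own horizontal scale. TXNIP lay above 0 in all 8 lines, from 0.86 in E797R to 2.39 in LECY.

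ARRDC1 followed another order of lines. In WT cells it was at 15.9, 14.0 and 19.2 CPM with siNT and at 24.0, 26.3 and 25.4 CPM with siUPF1. These groups did not overlap, and siUPF1 lay wholly above siNT for 13.2% of genes in this line. ARRDC1 rose 1.54-fold there (log2 difference 0.62, SE 0.16, edgeR adjusted p = 0.00572), and without siNT replicate 2 the adjusted p was 0.0657 (edgeR). In LECY cells, where TXNIP rose most, ARRDC1 was at 20.1, 19.3 and 28.3 CPM against 19.0, 18.4 and 28.1 CPM (log2 difference −0.04, 95% interval −0.35 to 0.28). In FE-ER cells it went from 20.4, 17.8 and 19.4 to 28.2, 23.6 and 25.5 CPM (0.42, SE 0.16) and in I757R cells from 20.5, 19.5 and 24.5 to 26.0, 29.3 and 24.9 CPM (0.31, SE 0.15). Neither passed without a block (edgeR adjusted p = 0.0555 and 0.177) and both passed with it (0.00730 and 0.0429). The remaining lines, F192E, IR-ER and E797R, gave ARRDC1 log2 differences of 0.14, 0.28 and 0.18.

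ARRDC2, which had the lowest level per kilobase of the ARRDC genes, rose in LECY cells and did not pass the test in the other 6 lines. In LECY it was at 9.62, 8.99 and 11.8 CPM with siNT and at 14.9, 13.3 and 15.4 CPM with siUPF1, without overlap (log2 difference 0.52, SE 0.16, edgeR adjusted p = 0.0111). In this line siUPF1 lay wholly above siNT for 20.1% of genes. The ARRDC2 call was lost without siNT replicate 2 (edgeR adjusted p = 0.0644). In WT cells ARRDC2 was at 9.19, 10.1 and 11.0 CPM against 10.7, 9.24 and 10.4 CPM, a difference within the spread of replicates. Log2 differences in the other 5 lines ran from −0.16 in I757R to 0.19 in F192E.

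ARRDC3 also rose in LECY cells. It was at 19.9, 18.1 and 14.5 CPM with siNT and at 35.5, 33.3 and 21.5 CPM with siUPF1 (log2 difference 0.78, SE 0.14, edgeR adjusted p = 3.08e-05). In each siRNA group replicate 3 was the lowest, the reverse of its place for ARRDC4. In F192E cells ARRDC3 went from 19.4, 20.9 and 19.8 to 25.3, 23.9 and 26.1 CPM and in FE-ER cells from 16.7, 18.6 and 16.4 to 20.8, 22.6 and 22.6 CPM. These log2 differences, 0.33 (SE 0.13) and 0.36 (SE 0.14), did not pass without a block (edgeR adjusted p = 0.0786 and 0.0699) and passed with it (0.0246 and 0.0221), and neither pair of groups overlapped. In WT cells it was at 18.1, 19.5 and 17.6 CPM against 16.3, 20.0 and 17.3 CPM (log2 difference −0.04, 95% interval −0.33 to 0.25).

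Counted over the 5 genes, 4 rose in LECY, 2 in F192E, 1 each in WT, FE-ER, I757R and IR-ER, and 0 in E797R, and none fell. Of all genes, 15.8% were called higher in LECY, 11.8% in F192E, 8.43% in WT, 8.34% in E797R, 10.1% in FE-ER, 8.13% in I757R and 9.21% in IR-ER. Called lower in these lines were 13.6%, 10.1%, 6.98%, 7.73%, 8.52%, 7.79% and 7.8%. In E797R 1 gene, TXNIP, had an unadjusted p under 0.05 and DESeq2 called 0. With replicate number as a block the counts were 4 in LECY and FE-ER, 3 in F192E and I757R, and 2 in WT, IR-ER and E797R, beside 21.4%, 16.2%, 17.9%, 14.4%, 13.7%, 15.3% and 14% of all genes called higher. Counted by gene over the 7 lines, TXNIP rose in 5 (7 with the block), ARRDC4 in 2 (6 with the block) and ARRDC1, ARRDC2 and ARRDC3 in 1 each (3, 1 and 3 with the block).

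Averaged over the 7 lines, 4 of the 5 genes rose and 0 fell, beside 29.8% and 29.1% of all genes. The mean log2 difference was 1.32 for TXNIP (SE 0.13, edgeR adjusted p = 8.13e-11), 1.25 for ARRDC4 (SE 0.23, 1.83e-05), 0.28 for ARRDC3 (SE 0.05, 1.87e-05) and 0.27 for ARRDC1 (SE 0.06, 0.000124). ARRDC2 stood at 0.06 (95% interval −0.07 to 0.18, edgeR adjusted p = 0.448). The median over all genes was 0.00165 on the same scale. Within a replicate number, the siUPF1 library was above its siNT partner in 21 of 21 pairs for TXNIP and for ARRDC4, in 17 of 21 for ARRDC1 and for ARRDC3, and in 9 of 21 for ARRDC2. The ratios ran from 1.40 to 5.77 for TXNIP and from 1.42 to 6.51 for ARRDC4. The share of all genes reaching such counts of pairs was not computed.

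The mutant lines were then compared with the WT line, both with siUPF1. Mean UPF1 RNA with siUPF1 was 3260 CPM in LECY, 3839 in F192E and 3909 in I757R. It was 4081 CPM in IR-ER, 4262 in E797R, 4515 in WT and 4819 in FE-ER. The highest library had 3504 CPM in LECY and 3861 CPM in F192E, and the lowest WT library had 4218 CPM. Effects of a mutation and of the UPF1 level of its line cannot be told apart in these comparisons. In LECY cells TXNIP was 2.89-fold (log2 1.53, SE 0.34, edgeR adjusted p = 0.00131), ARRDC4 3.73-fold (1.90, SE 0.59, 0.0297), ARRDC3 1.68-fold (0.74, SE 0.14, 0.000158) and ARRDC2 1.44-fold (0.52, SE 0.16, 0.0225) above WT. All 4 were called higher, as were 8.18% of genes, and ARRDC1 was not (log2 −0.19, 95% interval −0.51 to 0.12). For TXNIP the lowest LECY library had 25.3 CPM and the highest WT library 12.8 CPM. ARRDC4 had 121 CPM in its lowest LECY library and 72.8 CPM in its highest WT library, replicate 3, without which its difference was 2.52. The share of all genes separated in this way between a mutant and WT was not counted. The ARRDC4 call was lost without siUPF1 replicate 1 or 2 of WT or replicate 3 of LECY, with adjusted p of 0.125, 0.129 and 0.132, and the ARRDC2 call without replicate 2 or 3 of WT or replicate 1 or 3 of LECY, with 0.106, 0.0504, 0.0631 and 0.0841 (edgeR).

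The F192E line with siUPF1 came next. TXNIP differed from WT by 0.97 on the log2 scale (SE 0.34, edgeR adjusted p = 0.158), ARRDC4 by 1.59 (SE 0.59, 0.213) and ARRDC3 by 0.49 (SE 0.14, 0.0512). None of the 5 genes was called without a block, beside 1.51% of genes called higher, although 3 had an unadjusted p under 0.05 and DESeq2 called 1, ARRDC3. With replicate number as a block these 3 passed, with adjusted p of 0.00600, 0.000451 and 0.00672 (edgeR), beside 4.25% of genes called higher. Without WT replicate 3 the ARRDC4 difference was 2.21 (without a block). ARRDC4 showed all 3 F192E libraries (128, 73.9 and 188 CPM) above the highest WT library (72.8 CPM), replicate 2 narrowly. The share of all genes so separated was not counted here either.

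E797R, FE-ER, I757R and IR-ER with siUPF1 each had 0 of the 5 genes called against WT, by edgeR and by DESeq2, beside 0%, 0.383%, 0.0719% and 0.174% of genes called higher. Unadjusted p was under 0.05 for TXNIP and ARRDC3 in FE-ER and I757R, for ARRDC3 in IR-ER and for none in E797R. The TXNIP differences were 0.33 (95% interval −0.38 to 1.04), 0.86 (0.17 to 1.56), 0.91 (0.22 to 1.60) and 0.69 (−0.01 to 1.39) on the log2 scale in this order of lines. The ARRDC4 intervals were wider, from −0.23 to 2.20 in FE-ER and from −0.86 to 1.60 in E797R.

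**Figure D3:**
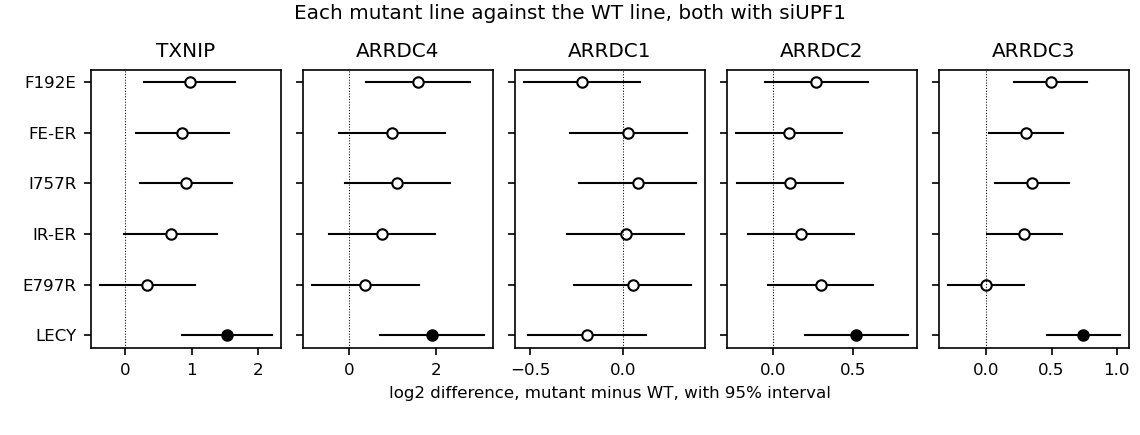
Log2 difference of each mutant line minus the WT line, both with siUPF1, with its 95% interval (horizontal axis), by gene (panel) and mutant (vertical axis). Filled circles passed the test without a block, and each panel has its own horizontal scale. LECY is the only line with filled circles, for TXNIP, ARRDC4, ARRDC2 and ARRDC3.

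With siNT none of the 6 mutants had any of the 5 genes called against WT, by edgeR or DESeq2. Over all genes the share called higher was 0.00599% in LECY and 0% in the other 5 mutants. At an unadjusted p under 0.05 there were 2 genes in I757R (TXNIP and ARRDC1) and ARRDC1 alone in IR-ER, E797R and LECY. Every mutant had a higher mean than WT for ARRDC1 with siNT, 19.2 to 23.1 CPM against 16.4 CPM. Because the WT siNT group was the lowest of the 16 for TXNIP, ARRDC4 and ARRDC1 and enters each of these comparisons, they are not independent of each other.

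The knockdown response itself was then compared between each mutant and WT as a difference of differences. ARRDC3 responded more in LECY than in WT, by 0.82 on the log2 scale (SE 0.20, edgeR adjusted p = 0.0108), where 2.76% of genes were called higher. The call was lost without LECY siUPF1 replicate 1 (0.0660) or LECY siNT replicate 3 (0.0695), and with only the groups compared in the fit (0.176). TXNIP differed by 1.30 (95% interval 0.21 to 2.38, edgeR adjusted p = 0.239), ARRDC4 by 1.59 (−0.18 to 3.36, 0.450), ARRDC2 by 0.52 (0.05 to 0.98, 0.282) and ARRDC1 by −0.66 (−1.12 to −0.20, 0.114). With replicate number as a block TXNIP, ARRDC4 and ARRDC1 passed too (edgeR adjusted p = 0.0334, 0.0151 and 0.0133), beside 5.49% of genes called higher and 2.97% called lower. The ARRDC4 value without a block was 0.99 without WT siNT replicate 3, 2.21 without WT siUPF1 replicate 3 and 2.24 without LECY siNT replicate 3. The ARRDC1 value was thus opposite in sign to those of the other genes. It was also negative in E797R (−0.44), F192E (−0.49), FE-ER (−0.20), I757R (−0.31) and IR-ER (−0.34). All these values share the WT siNT group, the lowest of 16 for ARRDC1. ARRDC1 means in LECY and WT were 22.6 and 16.4 CPM with siNT, and 21.8 and 25.2 CPM with siUPF1.

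For the other 5 mutants no difference of knockdown responses was called for the 5 genes by edgeR or DESeq2. The share of genes called higher was 0.18% in F192E, 0.00599% in FE-ER and 0% in E797R, I757R and IR-ER. At an unadjusted p under 0.05 only ARRDC1 in F192E was found (log2 −0.49, SE 0.22). The interval for TXNIP in E797R, −1.32 to 0.86, and that for ARRDC4 in F192E, −0.69 to 2.82, were wide.

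Ordered by mean level over all 16 groups, TXNIP ran from 4.32 CPM in WT with siNT to 26.2 CPM in LECY with siUPF1 and ARRDC4 from 25.5 to 161 CPM between the same groups. ARRDC1 ran from 16.4 CPM (WT, siNT) to 26.7 CPM (I757R, siUPF1), ARRDC2 from 9.24 CPM (CLIP, siNT) to 16.9 CPM (CLIP, siUPF1) and ARRDC3 from 15.2 CPM (E797R, siNT) to 31.0 CPM (CLIP, siUPF1). Neighbours in these orders were rarely distinct: the ranges of adjoining groups overlapped in 15 of 15 pairs for ARRDC4 and ARRDC1 and in 14 of 15 for each of the other 3 genes.

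Levels moved with replicate number, most widely for ARRDC4 and TXNIP. ARRDC4 was lowest in replicate 2 in 16 of 16 groups, on average 0.68 below its group mean on the log2 scale, and highest in replicate 3 in 13 of 16, on average 0.66 above. TXNIP was lowest in replicate 2 in 14 of 16 groups (mean −0.40). ARRDC1 and ARRDC2 were lowest in replicate 2 in 11 and 10 of 16 groups (means −0.10 and −0.11) and highest in replicate 3 in 10 of 16 each (means 0.14 and 0.09). ARRDC3 was lowest in replicate 3 in 10 of 16 groups (mean −0.10). Median library totals of the 3 replicate numbers were alike, 8851677, 8167828 and 8734357 expected counts. What the replicate numbers stand for was not given in the sources used here, and their part was measured only through the fits with a block and those without all libraries of 1 number. Without all libraries of replicate 1, 12 calls were lost. All 4 calls for LECY against WT with siUPF1 were among them, with TXNIP at 1.46 (edgeR adjusted p = 0.0642), ARRDC3 at 0.55 (0.0632), ARRDC4 at 1.79 (0.264) and ARRDC2 at 0.56 (0.162). The difference of LECY and WT responses for ARRDC3 was 0.74 (edgeR adjusted p = 0.226). The knockdown calls lost were ARRDC4 (2.24, edgeR adjusted p = 0.0861) and ARRDC2 in LECY, ARRDC4 in F192E, ARRDC1 in WT, and TXNIP in FE-ER, I757R and IR-ER. Without all libraries of replicate 2 or of replicate 3, 5 and 3 calls were lost.

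The spread between replicates was wide for ARRDC4 and, to a lesser extent, for TXNIP. The pooled SD of log2 CPM within groups was 0.76 for ARRDC4, above 97.4% of genes and above 99.9% of the 1001 genes nearest to it in level. It was 0.46 for TXNIP, above 83.7% of genes and 95.1% of those nearest in level. ARRDC1, ARRDC2 and ARRDC3 had SDs of 0.19, 0.19 and 0.17, below the median of 0.21 over all genes.

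**Figure D4:**
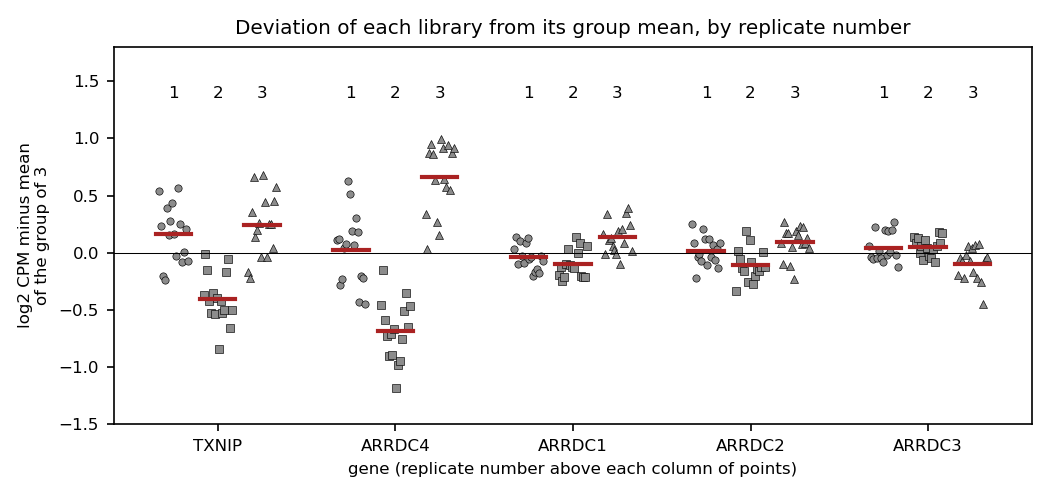
Deviation of each library from the mean of its group of 3, in log2 CPM (vertical axis), by gene and replicate number (horizontal axis), with the mean of 16 groups as a red bar. ARRDC4 has its replicate 2 libraries all below 0, at −0.68 on average, and its replicate 3 libraries at 0.66.

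TXNIP and ARRDC4 varied together. Over the 48 libraries the Pearson correlation of their log2 CPM was 0.932, and over the 16 group means it was 0.978. The deviations from group means also correlated (0.856), and these points share the siRNA treatment in the first 2 cases and the replicate numbers in the first and last. ARRDC4 ranked 6 of 16696 genes for likeness to TXNIP, and TXNIP ranked 7 for likeness to ARRDC4. ARRDC3 correlated with TXNIP over libraries (0.635) but not within groups (−0.214), and ARRDC1 with ARRDC3 at −0.188 over libraries and −0.692 within groups.

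**Figure D5:**
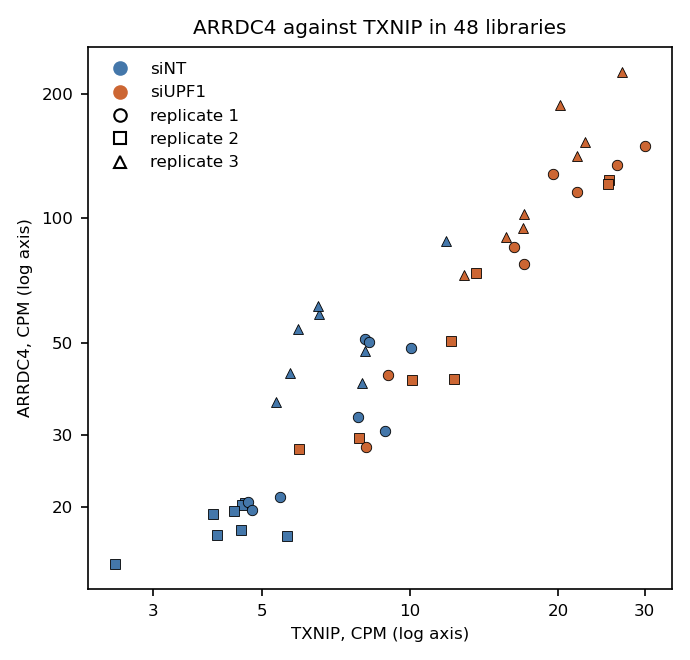
ARRDC4 against TXNIP in 48 libraries, both in CPM on log axes, by siRNA (colour) and replicate number (symbol). The libraries form 1 rising band (r = 0.932), along which siNT and siUPF1 libraries overlap, since the highest siNT library had 11.8 CPM of TXNIP and the lowest siUPF1 library 5.95 CPM.

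The genes most like each of the 5 over the 48 libraries were named by their correlation. For ARRDC4 these were TSC22D3 (0.973), a glucocorticoid-induced leucine zipper gene, CEP250 (0.946), a centrosomal protein gene, and SRGAP2B (0.939), a partial copy of SRGAP2 whose reads may be shared with its parent. For TXNIP they were DENND5A (0.941), HRK (0.940), a BH3-only gene, and LPIN1 (0.938), a phosphatidate phosphatase gene. ARRDC3 was nearest to R3HCC1L (0.871), RIOK3 (0.860) and HAUS2 (0.856). ARRDC1 was nearest to AGRN (0.852), MPND (0.831) and SLC27A3 (0.823), and ARRDC2 to TTC19 (0.776), AGPAT4 (0.776) and PARP16 (0.759). Over the 16 group means the corresponding values ran from 0.829 for AGPAT4 to 0.979 for TSC22D3.

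Genes around the 5 were read from lists. Changes that were also seen in WT cells stood beside 4218 to 4982 CPM of UPF1 RNA with siUPF1 in that line. Whether such changes, in the lists or in the 5 genes, depended on UPF1 was not tested. Of 11 genes of the Max and Mlx network, which includes the factors that act on TXNIP and ARRDC4, 3 or 4 rose and 0 fell in each of the 8 knockdowns, with medians of 0.20 to 0.37 on the log2 scale. MLXIP, encoding MondoA, rose in 8 of 8 lines (0.49 to 0.98), from 109 to 214 CPM in CLIP and from 114 to 173 CPM in WT. MLX rose in 8 of 8 as well (0.41 to 0.56), MGA in 7 of 8 and MXD4 in 4 of 8 (0.20 to 0.41). In WT cells these were 0.61 for MLXIP and 0.55 for MLX (edgeR adjusted p = 7.72e-05 and 0.000428). Over all genes, 8.13% to 18.1% rose and 6.98% to 15.6% fell in these knockdowns, with medians of −0.03 to 0.02.

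Glucose uptake and glycolysis genes were called in both directions. Of 20 listed, 4 rose in every line (20%), beside 8.13% to 18.1% of all genes. In WT 1 fell (5%, beside 6.98% of all genes) and in LECY 7 fell (35%, beside 13.6%), the lowest and highest numbers. SLC2A1, the GLUT1 transporter that TXNIP binds, rose in 8 of 8 (0.69 to 1.05), from 49.5 to 102 CPM in CLIP and from 52.2 to 101 CPM in WT. The phosphofructokinase gene PFKL (0.44 to 0.73) and the hexokinase gene HK2 (0.30 to 0.57) rose in 8 of 8, and GAPDH fell in 8 of 8 (−0.57 to −0.24).

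In the thioredoxin system, 1 to 3 of 13 genes rose (7.69% to 23.1%) and 2 fell (15.4%) in each line. Of all genes 8.13% to 18.1% rose and 6.98% to 15.6% fell. PRDX3, the mitochondrial peroxiredoxin, fell in 8 of 8 lines (−3.21 to −2.50), the largest fall of this list, from 98.9 to 10.6 CPM in CLIP and from 101 to 17.9 CPM in WT. PRDX2 fell in 8 of 8 (−0.91 to −0.47), while PRDX1 (0.45 to 0.67) and TXNRD2 (0.25 to 0.68) rose in 7 of 8.

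Among 11 NEDD4-family ligases and their adaptors, the partners of alpha-arrestins, 1 to 4 rose (9.09% to 36.4%) and 2 or 3 fell (18.2% or 27.3%) per line. The shares of all genes were 8.13% to 18.1% and 6.98% to 15.6%. WWP2 rose in 8 of 8 (0.78 to 1.36) and its paralogue WWP1 fell in 8 of 8 (−1.16 to −0.93). NDFIP1, an adaptor of these ligases, fell in 8 of 8 (−0.56 to −0.36) and NEDD4L rose in 7 of 8 (0.25 to 0.48). Of 16 ESCRT genes, which serve ARRDC1-driven budding, 1 to 6 rose (6.25% to 37.5%) and 0 to 3 fell (0% to 18.8%), beside the same shares of all genes. STAMBP fell (−0.67 to −0.18) and MVB12A rose (0.07 to 0.61) in 7 of 8 each, and VPS37C and VPS37B rose in 6 of 8 each (0.16 to 0.56 and 0.15 to 0.39).

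Of the 6 other genes with an arrestin fold that were tested, 2 to 4 rose and 0 fell per line, beside 8.13% to 18.1% and 6.98% to 15.6% of all genes. VPS26A and VPS26B, subunits of retromer, rose in 8 of 8 (1.08 to 1.36 and 0.53 to 0.94). The beta-arrestin ARRB2 rose in 3 of 8 and VPS26C in 1 of 8. ARRB1 and RGP1 were not called in the mean over the 7 lines (−0.04 and −0.05).

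Of 21 genes of the FOXO and glucocorticoid response, 1 to 4 rose (4.76% to 19.0%) and 2 to 5 fell (9.52% to 23.8%) per line, with medians of −0.10 to 0.07. Over all genes 8.13% to 18.1% rose and 6.98% to 15.6% fell in the 8 knockdowns. TP53INP1 fell in 8 of 8 (−1.44 to −0.87), FKBP5, a standard glucocorticoid-induced gene, fell in 6 of 8 (−0.30 to −0.10), SESN3 fell in 5 of 8 and the ubiquitin ligase gene FBXO32 rose in 5 of 8 (0.28 to 0.88). Among 20 established NMD targets, the number that rose was 16 in CLIP, 15 in LECY and 12 in F192E, against 3 each in WT and E797R, 4 in I757R, 5 in IR-ER and 7 in FE-ER. The only one that fell did so in E797R. BAG1 rose in 8 of 8 (0.59 to 1.78), ANTXR1 in 8 of 8 (0.44 to 0.78), RHBDF2 in 7 of 8 (0.29 to 0.79) and SMG1 in 6 of 8 (0.14 to 1.56), and SMG1 was at 0.14 in WT and 1.56 in LECY.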

How the data were processed

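The deposited values are RSEM expected counts of paired-end, rRNA-depleted RNA-seq libraries, 58870 genes in 48 libraries. Per the submitters' processing notes the authors used cutadapt, STAR, RSEM, DESeq2 and the build hg38. Versions, annotation release and strand setting are not given in the sources used here. Of the expected counts the authors deposited, 9.16% were not whole, and they were rounded before testing. No 2 libraries held identical values.

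Samples were grouped by line and siRNA from their titles. edgeR 4.0.16 (R 4.3.3) fitted 1 quasi-likelihood model to all 16 groups with TMM scaling and filterByExpr (minimum count 10), which left 16697 genes. P-values were adjusted by Benjamini-Hochberg over all of them and called under 0.05. Levels are CPM, with a prior count of 2 on the log2 scale. Because the groups share replicate numbers, the numbers were checked: deviations from group means of same-numbered libraries in the 8 knockdowns correlated at 0.115 to 0.469 in every pair, above the 0.1 required for treating them as paired, and a block was fitted beside the main test. Same-numbered libraries of mutant and WT lines with siUPF1 paired by this rule too, except FE-ER. The pairing comes from the libraries and the labels' numbers, not from a stated shared day. On simulated counts of the WT knockdown (16697 genes) edgeR recovered 40.3%, 64.2% and 83.3% of genes changed 1.5, 2 and 4-fold, with 6 false calls. The simulated libraries were drawn independently, with no effect of replicate number, and genes were changed only in the WT group with siUPF1. These rates therefore need not hold for the measured libraries.

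Alternatives were DESeq2 size factors, no filter on low counts, a replicate block, only the groups compared, DESeq2 1.42.0 (Wald test) and leaving out each replicate. Leaving out all libraries of 1 replicate number was added after seeing the data. The 5 genes and the gene lists were chosen with earlier results of these data known. Arrestin-fold genes are all named, by level or change, and from each other list the genes named are up to 4, those changed in the same direction in most knockdowns, then by mean size of change. Genes most like each of the 5 are the 3 highest Pearson correlations of log2 CPM. Gene structure is from GENCODE 29 and upstream sequence from RefSeq (GRCh38.p14). All 5 genes matched in both. One marker of another cell type is not reported here.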

Additional observations from a re-analysis of the deposited data

Results flagged for a closer look

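The knockdown response was compared between LECY and WT cells by a test of the difference itself. Without a block it was called for 1 of the 5 genes, ARRDC3, at 0.82 on the log2 scale (edgeR adjusted p = 0.0108), beside 2.76% of all genes called higher. That call was lost with only the groups compared (0.176), without LECY siUPF1 replicate 1 (0.0660) and without LECY siNT replicate 3 (0.0695). With the block 4 of the 5 genes were called, beside 5.49% of all genes called higher and 2.97% called lower. With replicate number as a block it was 1.31 for TXNIP (SE 0.40, edgeR adjusted p = 0.0334), 1.67 for ARRDC4 (SE 0.45, edgeR adjusted p = 0.0151) and −0.66 for ARRDC1 (SE 0.18, edgeR adjusted p = 0.0133). Dixon's test for an outlying sample was not applied to groups of 3.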

How the results depend on the processing

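The 4 rises averaged over the 7 lines kept their direction and their call under every alternative run, as did the TXNIP and ARRDC3 rises in LECY cells. TXNIP in WT cells rested on 2.50 to 12.8 CPM per library, and groups of 3 left wide intervals for ARRDC4. Of 105 values, DESeq2 size factors left 102 unchanged in direction and call, the replicate block 86 (18 others gained a call), only the groups compared 97 and no filter on low counts 82. The DESeq2 Wald test left 99 of 103. The cause of the changes below was not tested.

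With replicate number as a block the count of the 5 genes called became 2 in the knockdowns in WT, IR-ER and E797R, 4 in FE-ER, 3 in I757R, 3 for F192E against WT with siUPF1, 2 for FE-ER against WT with siUPF1 (not paired by the rule used) and 4 for the difference of LECY and WT responses. Without the filter on low counts it became 3 in the WT knockdown and 2 in FE-ER, I757R, IR-ER and E797R, and it became 3 in LECY and 3 for LECY against WT with siUPF1, where ARRDC2 lost its call (edgeR adjusted p = 0.0654 and 0.0862). With siUPF1 against WT it became 2 in F192E, FE-ER and I757R and 1 in IR-ER, with siNT 1 in F192E, 2 in I757R and 1 in IR-ER, and for the difference of responses 1 in F192E and 3 in LECY. ARRDC4 gained knockdown calls without the filter although its log2 difference hardly moved. In WT it went from 0.76 to 0.75 (edgeR adjusted p without the filter = 1.22e-06). In E797R it went from 0.98 to 0.99 (5.08e-12), and in FE-ER the adjusted p was 6.06e-19 (edgeR). Why these p-values fell so far was not tested, so calls gained without the filter are not taken as firmer evidence. With only the groups compared the count became 1 in the F192E knockdown, 2 in FE-ER, 0 in I757R, 2 for LECY against WT with siUPF1 and 0 for the difference of LECY and WT responses. DESeq2 gave 2 in the WT knockdown and 1 for F192E against WT with siUPF1.

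Leaving out 1 library, or all libraries of 1 replicate number, gave 0 to 2 genes called in the WT knockdown, 1 to 2 in F192E, 0 to 1 in FE-ER, I757R and IR-ER, 2 to 4 in LECY, 0 to 4 for LECY against WT with siUPF1 and 0 to 2 for the difference of LECY and WT responses. The difference of responses for ARRDC1 in LECY passed without LECY siUPF1 replicate 3 (−0.89, edgeR adjusted p = 0.0184).

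Over all genes, calls in the WT knockdown numbered 2572, 4356 with the block and 1204 with only the groups compared. For F192E against WT with siUPF1 they were 304, 1167 and 85, for LECY against WT with siUPF1 2258, 4074 and 1016, and for the difference of LECY and WT responses 553, 1412 and 218. The block gave 5773, 5192, 4756, 4715 and 4583 calls in the F192E, FE-ER, I757R, IR-ER and E797R knockdowns in place of 3648, 3110, 2658, 2839 and 2682.

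Values near 0 changed sign. ARRDC2 in the WT knockdown became −0.00054 with DESeq2 size factors, −0.013 without the filter, −0.0090 with the block, −0.0074 with only the groups compared and −0.0011 with DESeq2. ARRDC3 for E797R against WT with siUPF1 became 0.0093 without the filter. The difference of responses became −0.0023 (size factors) and −0.018 (no filter) for TXNIP in I757R, and −0.011, −0.019, −0.011 (only the groups compared) and −0.00090 (DESeq2) for ARRDC4 in IR-ER.

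With libraries left out, log2 knockdown differences ranged from −0.11 to 0.080 for ARRDC2 and −0.12 to 0.024 for ARRDC3 in WT, −0.21 to 0.078 for ARRDC2 in FE-ER, −0.033 to 0.21 for ARRDC3 in IR-ER, −0.082 to 0.16 for ARRDC2 in E797R and −0.26 to 0.16 for ARRDC1 in LECY. Against WT with siUPF1 they ranged from −0.069 to 0.10 (ARRDC1) and −0.033 to 0.24 (ARRDC2) in FE-ER and −0.044 to 0.079 (ARRDC1) in IR-ER. In E797R they ranged from −0.10 to 0.68 (TXNIP), −0.032 to 0.17 (ARRDC1), −0.20 to 0.10 (ARRDC3) and −0.27 to 1.0 (ARRDC4). Differences of responses ranged from −0.043 to 0.32 for ARRDC2 in F192E, and in FE-ER from −0.15 to 0.49 (TXNIP), −0.27 to 0.12 (ARRDC2) and −0.14 to 1.08 (ARRDC4). They ranged from −0.31 to 0.35 (TXNIP) and −0.53 to 0.69 (ARRDC4) in I757R, −0.34 to 0.30 (TXNIP) and −0.62 to 0.61 (ARRDC4) in IR-ER, and −0.66 to 0.13 (TXNIP), −0.091 to 0.16 (ARRDC2) and −0.41 to 0.86 (ARRDC4) in E797R.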
